A study of Mus musculus with 18 samples.

Results

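Cytosolic ribosomal protein genes were followed in primary mouse pre-B cells before and after loss of interleukin 7 (IL-7), on 18 Illumina MouseRef-8 arrays. Members were the genes whose array symbol names a protein of the large (Rpl) or small (Rps) cytosolic subunit, Rplp0, Rplp1, Rplp2 and Rpsa included, with the kinases and the paralogs Rpl7l1, Rps27l, Rpl22l1 and Rpl39l left out. The table held 61 such symbols on 78 probes. Of these, 54 were tested, 33 of the large and 21 of the small subunit, among 8446 genes in all. A gene was tested if 3 or more arrays detected a probe for it at a detection p under 0.01, and its brightest such probe stood for it. Rpl14, Rpl6, Rpl17, Rplp2, Rps23 and Rpsa had no probe detected on any array, and Rps23rg1 was detected on 2. The other 54 were each detected on all 18 arrays.

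The arrays fell into 6 groups of 3. Bone marrow of 4- to 6-week-old mice, whose background mixes C57BL/6 and BALB/c, was grown for 7 to 10 days with IL-7 at 5 ng/mL, and each of 9 cultures gave an array in IL-7 (day 0) and another at 2 days after its withdrawal. There were 3 cultures of each genotype, labelled Rag-/-:IgH:Bcl2, Art-/-:IgH:Bcl2 and Art-/-:Nfkb2-/-:IgH:Bcl2 and called Rag-, Art- and Art:Nfkb2-labelled below. All of them, the Rag-labelled reference included, carry transgenes for a heavy chain and for Bcl2, and the latter keeps the cells alive without the cytokine, so no group is wild type. Rag-labelled cells lack RAG1, which the design text names, and so make no breaks at antigen receptor loci. In Art-labelled cells the nuclease Artemis is missing, so that breaks made by RAG are not joined, and Art:Nfkb2-labelled cells also lack Nfkb2, which encodes the NF-kB subunit p100 and its product p52. The genotype field writes the last without the knockout mark on Nfkb2. Here the titles are followed. The sources used here do not name the promoters that drive the transgenes.

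Ribosomal proteins are needed in nearly equal number, so cells tend to make their mRNAs together. These mRNAs begin with an oligopyrimidine tract (a TOP motif), through which the mTOR pathway sets how strongly they are translated, and growth factors drive their synthesis along with that of ribosomal RNA through Myc. IL-7 is the main growth factor of early B cells, and pre-B cells shrink and leave the cell cycle without it. The arrays measure RNA level and say nothing of translation.

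Between 10091 and 10894 probes were detected per array (39.3% to 42.4%), and the 3 arrays of each group correlated with each other at 0.979 to 0.993. Precision is limited by this small number of arrays. Of 8 tested B-lineage markers, 7 were detected on all arrays, among them Cd79a, Cd79b, Ebf1 and Pax5. The list's summed linear signal on withdrawn Rag-, Art- and Art:Nfkb2-labelled arrays was 102525 to 114060, 87832 to 92832 and 91324 to 92346. In IL-7 it was 99033 to 101952, 93246 to 94694 and 88603 to 94769. Between withdrawn Art- and Rag-labelled cells 3 of the 8 were called lower and 0 higher, where 8.89% of all genes were lower. Of 10 tested myeloid markers 3 were detected on all arrays (Lyz1, Lyz2 and Tyrobp), and the summed linear signal of the list in Rag-, Art- and Art:Nfkb2-labelled cells was 9406 to 25889, 9889 to 11487 and 18780 to 27305 in IL-7. After withdrawal it was 2448 to 9611, 5156 to 5712 and 8869 to 13027. The part of these differences in the results below was not tested, and in such mixed RNA fewer cells of a type and less RNA per cell cannot be told apart. No erythroid marker was tested. The Rag1 and Nfkb2 probes did not check the genotypes: Nfkb2 read 9.21 ± 0.18 (SD, n = 3) on withdrawn Art:Nfkb2-labelled arrays against 8.80 ± 0.05 on Art-labelled ones, and the sources used here do not say whether these probes fall inside the deletions. All Rag-labelled arrays and both arrays of Art:Nfkb2-labelled culture 3 carried Y-linked signal, and the other arrays carried Xist. Sex and genotype thus cannot be told apart wherever Art- and Rag-labelled cells are compared.

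Ribosomal protein mRNAs were the brightest on the arrays. Members made up 11 of the 20 genes with the highest mean signal, 24 of the top 50 and 35 of the top 100. Brightest was Rplp1, a protein of the acidic stalk that recruits translation factors, at a mean normalized log2 signal of 15.99 over all arrays. It read the maximum of the scale on many arrays. Rpl9, at 15.94, and Rpl41, the smallest ribosomal protein, at 15.90, were the sixth and the ninth of all genes. The dimmest were Rpl21 at 7.97, Rps15a at 8.86 and Rplp0 at 9.40. Probes differ in how well they bind, so these log2 signals do not rank the mRNAs by abundance. With IL-7, members took 8.70%, 9.0% and 8.87% of the summed normalized signal in Rag-, Art- and Art:Nfkb2-labelled cells, and 7.99%, 8.50% and 8.44% after withdrawal. The withdrawn arrays of a genotype all lay below its IL-7 arrays in this share. The top of the scale was crowded: 8 to 17 members per array had a raw signal above 50000, where the brightest probe of an array read 63975 to 68835.

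Withdrawal of IL-7 lowered a subset of ribosomal protein genes, as read by the brightest probe of each. For many other members that probe lies near the top of the scale, so a small difference there does not show a steady level. In Rag-labelled cells 23 members fell and 1 rose by the limma test (adjusted p below 0.05 over all genes), where 19.4% of all genes were called lower and 25% higher (44.4% either way). In Art-labelled cells 14 fell and none rose, against backgrounds of 18.8% and 26.2% (45% either way). In Art:Nfkb2-labelled cells 12 fell and none rose, against 17.9% and 22.7% (40.6% either way). The share of members called lower was thus 42.6%, 25.9% and 22.2% in that order, of which the last lies near its background. The median log2 difference of the members was -0.18, -0.11 and -0.10, beside 0.10, 0.11 and 0.09 over all genes, and 43 of 54 members had a negative difference in each genotype. Few changes were large, with 3, 3 and 1 members beyond 2-fold. Scaling arrays to a common median of all probes in place of quantile normalization left 12 members called in Rag-labelled cells, and scaling to the median of probes detected on every array gave 25 and 21 in the Art- and Art:Nfkb2-labelled cells.

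The members that fell in all 3 genotypes numbered 10: Rplp0, Rpl4, Rpl13a, Rpl27a, Rpl7a, Rpl21, Rpl24, Rpl29, Rps2 and Rps26. They are 18.5% of the members, where 12.5% of all genes fell in all 3. Of these 10, 7 (Rplp0, Rpl4, Rpl13a, Rpl27a, Rpl7a, Rpl24 and Rpl29) kept the call in every genotype under each of the 27 alternatives run.

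Rplp0, the stalk protein that anchors the acidic P proteins to the large subunit, fell furthest of the members as read by their brightest probes. Its log2 signal in Rag-labelled cultures 1, 2 and 3 was 9.55, 10.41 and 10.06 in IL-7 and 8.19, 8.54 and 8.61 after withdrawal. Art-labelled cultures gave 10.12, 10.22 and 10.48 in IL-7 and 8.67, 8.89 and 8.78 after it, and Art:Nfkb2-labelled cultures 10.14, 10.00 and 10.08, then 8.89, 8.96 and 8.64. Every withdrawn array lay below every IL-7 array. The mRNA was 2.95-, 2.82- and 2.36-fold lower after withdrawal in the 3 genotypes (log2 difference -1.56, -1.49 and -1.24, SE 0.18 in each; limma adjusted p = 5.81e-06, 7.56e-06 and 6.17e-05).

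Rpl4, whose long loop lines the tunnel through which the new peptide leaves, read 11.60, 12.05 and 12.16 in IL-7 and 10.92, 10.77 and 10.83 after withdrawal in Rag-labelled cells. In Art-labelled cells it went from 11.92, 12.02 and 12.09 to 11.10, 11.11 and 10.97, and in Art:Nfkb2-labelled cells from 11.84, 11.77 and 11.94 to 10.78, 11.07 and 10.96. Here too no withdrawn array reached an IL-7 array of any genotype. The log2 differences were -1.10, -0.95 and -0.91 (SE 0.12 in each; limma adjusted p = 5.51e-06, 2.11e-05 and 3.87e-05).

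Rpl13a, a large-subunit protein with a second role in silencing inflammatory mRNAs in human monocytes, fell by about as much. It read 12.45, 12.58 and 12.44 in IL-7 and 11.46, 11.55 and 11.45 after withdrawal in Rag-labelled cells, a log2 difference of -1.01 ± 0.08 (SE, limma adjusted p = 1.72e-07). Art-labelled cells went from 12.91, 12.72 and 12.82 to 11.62, 11.70 and 11.74 (-1.13) and Art:Nfkb2-labelled cells from 12.74, 12.48 and 12.58 to 11.78, 11.74 and 11.72 (-0.86). Groups did not overlap in any genotype.

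Of the remaining large-subunit members of the set, Rpl27a changed by -0.90, -0.87 and -0.74 in Rag-, Art- and Art:Nfkb2-labelled cells, and Rpl7a by -0.86, -0.75 and -0.58. Rpl21 changed by -0.58, -0.98 and -0.66, at the lowest signal of all members. Rpl24, which forms a bridge to the small subunit, changed by -0.49, -0.42 and -0.40, and Rpl29 by -0.46, -0.38 and -0.39. Without Rag-labelled IL-7 array 2 Rpl21 was no longer called in that genotype (limma adjusted p = 0.0515).

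On the small subunit, Rps2 and Rps26 fell in all genotypes. Rps2, which lies where the mRNA enters, read 15.46, 15.75 and 15.67 in IL-7 and 14.92, 14.87 and 14.69 after withdrawal in Rag-labelled cells, and changed there by -0.80 ± 0.10 (SE, limma adjusted p = 1.79e-05). Its changes were -0.58 and -0.42 in the other genotypes, and in the Art:Nfkb2-labelled one the call was lost without both arrays of the Y-positive culture. Rps26, which contacts mRNA on the exit side, changed by -0.47, -0.24 and -0.20. Its call in Art:Nfkb2-labelled cells sat at the threshold (limma adjusted p = 0.0497) and was lost on leaving out any of 13 arrays (up to 0.205), and that in Art-labelled cells on leaving out 1 of IL-7 arrays 1 and 2 and withdrawn arrays 1 and 3 (up to 0.0531).

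**Figure D1:**
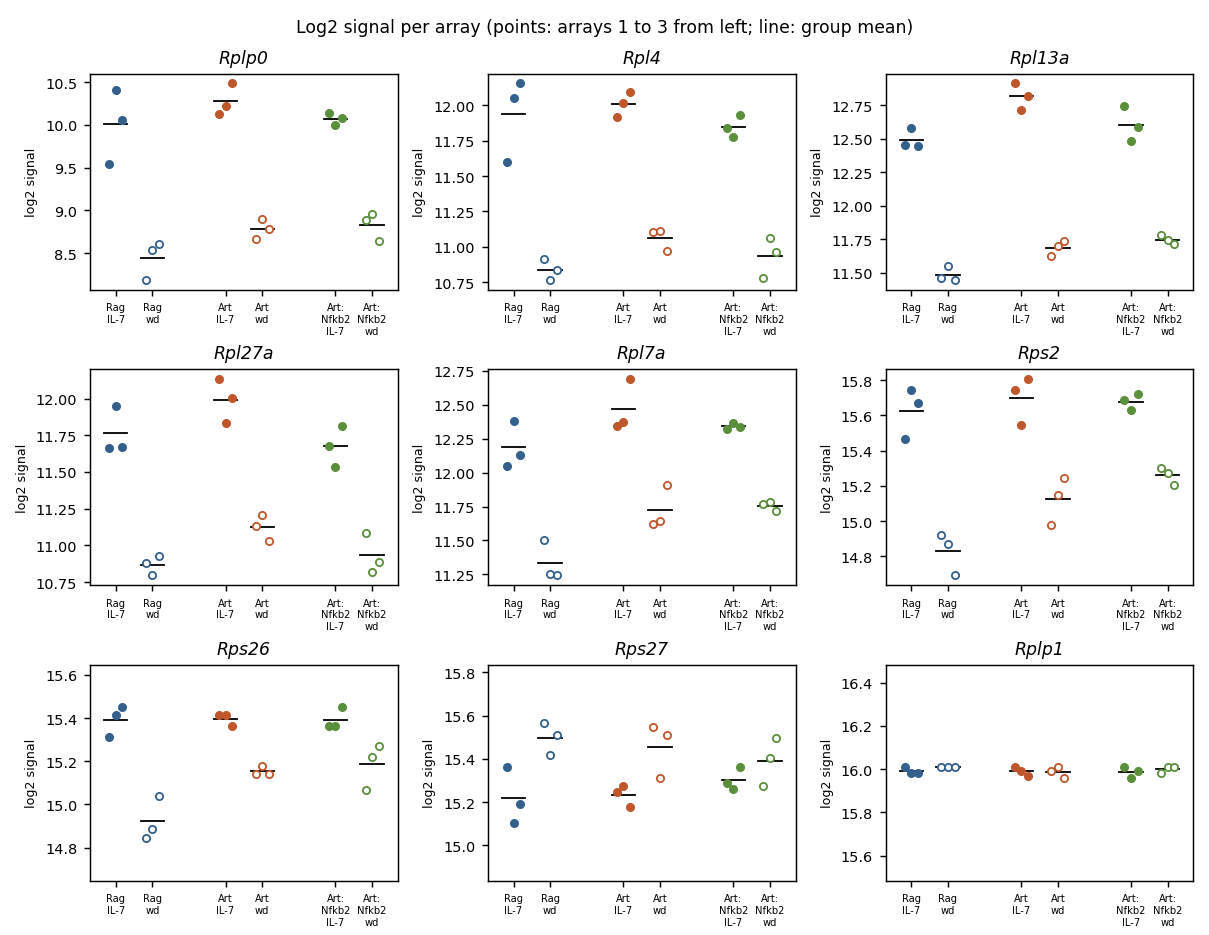
Normalized log2 signal (vertical axis) on each of the 18 arrays for 9 ribosomal protein genes, by genotype and condition; filled points are IL-7 arrays, open points withdrawn (wd) arrays, and the line is the mean of 3. Withdrawn points of Rplp0, Rpl4, Rpl13a, Rpl27a, Rpl7a, Rps2 and Rps26 lie below the IL-7 points of their genotype, Rps27 lies higher in Rag-labelled cells, and Rplp1 stays at about 16.

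The starts of these genes were read for runs of C and T, of which the TOP tract is one kind. RefSeq promoters (build GRCm38.p6) were found for 46 of the 54 members, 56 promoters in all, as some genes have several annotated starts. In the 30 bases around the start (15 before and 15 after), 20 of the 56 (35.7%) held an unbroken run of C and T of at least 8 bases, against 12% of 32851 promoters of all genes. The windows below show members that fell in all genotypes (Rplp0 to Rpl24), the member that rose (Rps27), Rps24 and Rpl38, whose brighter and dimmer probes differ as described below, and Rpl41, at the top of the scale. Capitals mark the longest C and T run, written 5′ to 3′ along the gene's strand.
Rplp0, chr5:115559452-115559481, plus strand: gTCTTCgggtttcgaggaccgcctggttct
Rpl4, chr9:64173372-64173401, plus strand: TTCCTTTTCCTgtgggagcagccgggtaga
Rpl13a, chr7:45128731-45128760, minus strand: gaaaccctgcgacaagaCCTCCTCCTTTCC
Rpl27a, chr7:109519180-109519209, plus strand: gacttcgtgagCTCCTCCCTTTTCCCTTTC
Rpl7a, chr2:26910792-26910821, plus strand: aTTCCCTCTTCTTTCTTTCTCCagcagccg
Rps2, chr17:24720048-24720077, plus strand: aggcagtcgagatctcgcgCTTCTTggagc
Rps26, chr10:128626492-128626521, minus strand: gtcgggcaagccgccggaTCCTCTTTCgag
Rpl24, chr16:55966260-55966289, plus strand: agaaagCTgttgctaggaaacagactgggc
Rps27, chr3:90213634-90213663, minus strand: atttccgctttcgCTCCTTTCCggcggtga
Rps24, chr14:24490663-24490692, plus strand: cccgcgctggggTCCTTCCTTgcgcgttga
Rpl38, chr11:114668565-114668594, plus strand: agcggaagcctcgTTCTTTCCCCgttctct
Rpl41, chr10:128549154-128549183, minus strand: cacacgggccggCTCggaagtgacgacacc

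Run length varied among the members that fell. Rpl7a had the longest run, of 21 bases, Rpl27a had 19 and Rpl13a 13, while Rpl24 had 2 and Rplp0 5. Rps24 had 9 and Rpl38 10. No set of members that did not fall can be drawn for comparison, since many of the brightest probes lie near the top of the scale. The annotated start fixes where the window lies, and a tract outside it is not seen. A run that ends before the start, as in Rpl4, is counted although it would lie outside the mRNA. The counts and lengths are thus not a measure of TOP tracts. Over the full promoters (250 bases before to 50 after the start, both strands), the ETS-factor core CCGGAAG was in 18 of the 56 member promoters (32.1%) and in 8.86% of all, and the YY1 core AAGATGGC in 7 (12.5%) and in 2.75%. The E-box CACGTG, bound by Myc, was in 7 (12.5%) and in 7.15%. The GC box GGGCGG was in 34 (60.7%) and 35.7%. Each motif was counted on its own, and the ETS and YY1 cores can share the letters AAG. These are matches of letters and were not tied to any change.

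By working part of the ribosome, the counts below are those of the brightest probe of each gene. On the P stalk Rplp0 fell in every genotype. Rplp1 read 0.02, -0.00 and 0.01, but its probe sits at the maximum of the scale and could show no change. Among 4 members at the stalk base and around the peptidyl transferase centre, 2 fell in Rag-labelled cells and 1 in Art-labelled cells. These were Rpl10, which completes the catalytic site late in assembly, at -0.43 and -0.31, and Rpl3 at -0.24 in Rag-labelled cells. Rpl12 was called in none, nor was the brightest probe of Rpl23, whose dimmest probe fell in all 3 genotypes. Of 7 members of the exit tunnel and its rim, 5, 2 and 1 fell, beside 19.4%, 18.8% and 17.9% of all genes. Rpl4 fell in all. Rpl39 changed by -0.40 in Rag-labelled cells, Rpl23a, the docking site of the signal recognition particle, by -0.35, Rpl19 by -0.29 and Rpl35 by -0.24 there. The brighter probe of Rpl31 was called in none and its dimmer probe in all 3. With scaling to the median of all probes Rpl4 alone of this list kept its call in Rag-labelled cells. Rpl19 was not called once Rag-labelled IL-7 array 2 or 3 or withdrawn array 2 was left out (limma adjusted p up to 0.127), nor Rpl35 once IL-7 array 1 or 3 or that same withdrawn array was (up to 0.123).

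All 3 tested members of the decoding centre and mRNA channel fell in Rag-labelled cells, and 1 of them, Rps2, in the other genotypes. Of all genes 19.4%, 18.8% and 17.9% fell. With scaling to the median of all probes Rps2 alone of the 3 kept its call in Rag-labelled cells. Rps3, at the mRNA entry, changed by -0.30, -0.25 and -0.07. With the culture as a block its fall in Art-labelled cells also passed (limma adjusted p = 0.0444 against 0.0529 without). Rps15, beside the decoding site, changed by -0.29 in Rag-labelled cells. Rps6, the substrate through which S6 kinase marks growing cells, changed by -0.32, -0.39 and -0.16, called in the first 2 genotypes. In Rag-labelled cells Rps6 was not called once IL-7 array 2 or withdrawn array 3 was left out (limma adjusted p up to 0.0795), nor Rps3 when array 2 of either condition was (up to 0.078), nor Rps15 when any IL-7 array or withdrawn array 2 was (up to 0.176). The Rps6 call in these cells was also lost with scaling to the median of all probes, and that of Rps15 with no filter on dim probes. Rpl5, which with the 5S RNA holds back Mdm2 and so stabilises p53 under ribosomal stress, changed by 0.02, -0.13 and -0.26. Its call in Art:Nfkb2-labelled cells (limma adjusted p = 0.0449) was lost on leaving out any of 12 arrays (up to 0.201). Diamond-Blackfan anaemia is an inherited failure of red cell production. Of 12 tested genes mutated in it in humans, 3, 1 and 2 fell and 1, 0 and 0 rose by the brightest probe. Of all genes 19.4%, 18.8% and 17.9% were called lower. Among the 12, the dimmer probes of Rps24 and Rpl31 were called lower in all 3 genotypes, and that of Rps19 in Rag-labelled cells. The counts are thus of what the brightest probes could show.

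Rps27, a small-subunit protein with a zinc finger, was the member that rose. It read 15.36, 15.11 and 15.19 in IL-7 and 15.57, 15.42 and 15.51 after withdrawal in Rag-labelled cells, so that all withdrawn arrays lay above all IL-7 arrays. The log2 difference was 0.28 ± 0.09 (SE, limma adjusted p = 0.0235), and it was not called once 1 of IL-7 arrays 2 and 3 and withdrawn arrays 1 and 3 was left out (up to 0.103) and under both median scalings. The differences in Art- and Art:Nfkb2-labelled cells were 0.22 and 0.09 (adjusted p = 0.0589 and 0.48), and the former passed with the culture as a block (0.0445). Rps14, which is lost in human 5q- syndrome, differed by 0.06, 0.09 and -0.03, and none of these passed. Its probe had a mean raw signal of 51575, near the top of the scale, so a steady level is not shown.

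How far a member changed went with how bright its probe was. Of 11 members with a mean log2 signal below 13, 6, 8 and 6 fell, with medians of -0.58, -0.87 and -0.58. Of 15 between 13 and 15, 8, 3 and 3 fell, and of the next 15 in order of brightness also 8, 3 and 3. Of the 13 brightest, 1, 0 and 0 fell, and the medians were 0.01, 0.01 and 0.00. Of all genes 19.4%, 18.8% and 17.9% were called lower, and the shares of all genes within these signal ranges were not computed. Across members, the Spearman correlation of mean signal with the size of the change was -0.60, -0.67 and -0.66 (54 genes that share arrays, given as a description). The bright genes that are not ribosomal behaved alike: among the 19 other genes in the signal range of the 13 brightest members the median size of change in Rag-labelled cells was 0.06, beside 0.05 for the members. Below 13 it was 0.32 for the 7957 other genes and 0.58 for the 11 members.

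**Figure D2:**
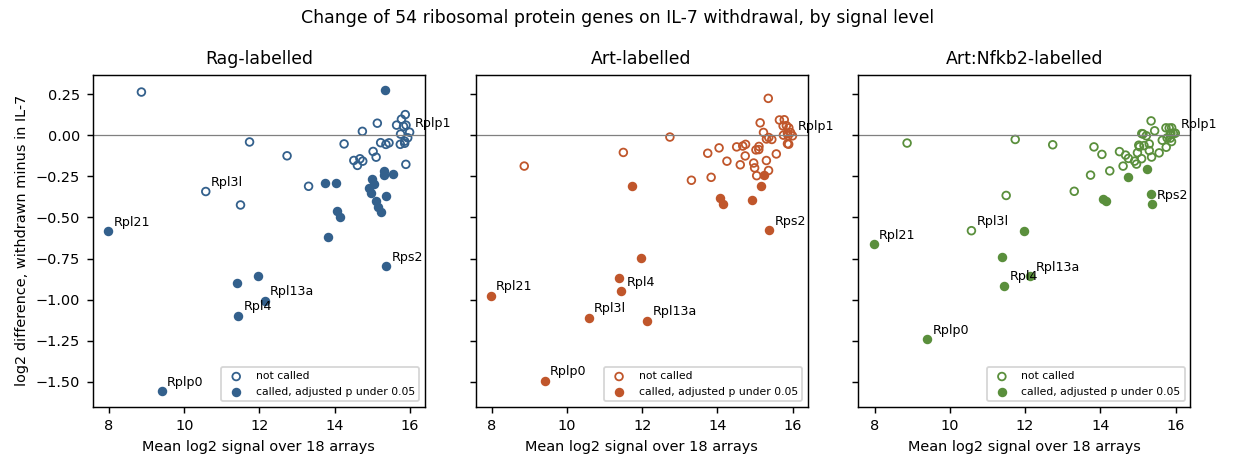
Log2 difference on withdrawal (vertical axis) against mean log2 signal over the 18 arrays (horizontal axis) for 54 ribosomal protein genes in each genotype; filled points passed the limma test. Points at the right end lie close to 0, and the deepest falls, Rplp0, Rpl4 and Rpl13a, lie below 13.

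Probes for the same gene gave the same picture. Of 9 members with more than 1 detected probe, a dimmer probe was called lower on withdrawal in 8, 7 and 6. By the brightest probe, 19.4%, 18.8% and 17.9% of all genes were called lower. The share among dimmer probes of other genes was not computed, and Rpl23 had more than 1 dimmer probe. The brighter probe of Rpl38, a protein needed for translating Hox mRNAs in mouse embryos, had a mean raw signal of 59564 and differed by -0.05, 0.01 and -0.02. Its dimmer probe had a mean raw signal of 840 and fell by 1.54, 1.38 and 1.31 on the log2 scale (limma adjusted p over all kept probes = 1.52e-05, 3.86e-05 and 7.58e-05). The array annotation gives the Rpl38 probes different transcript accessions, and gives the probes of each of the other 8 genes a shared one. In Rps24 the probes differed by -0.05 against -1.08, 0.06 against -0.90 and 0.05 against -0.85 in the same order of genotypes, with raw signals of 54833 and 1063. In Rpl31 they gave -0.04 against -0.97, and in Rpl23 0.10 for the brightest against -0.76 for the dimmest, in Rag-labelled cells. Rps19, the most often mutated gene of human Diamond-Blackfan anaemia, gave 0.13 against -0.39. Where both probes were of middling or low signal they ran together: Rpl29 gave -0.46 and -0.65 and Rpl21 -0.58 and -0.57. A ceiling of the scale, different transcripts and matches to the many processed copies of ribosomal protein genes cannot be told apart from these files, and probe sequences were not used here. The counts for bright members are therefore counts of what these probes could show.

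**Figure D3:**
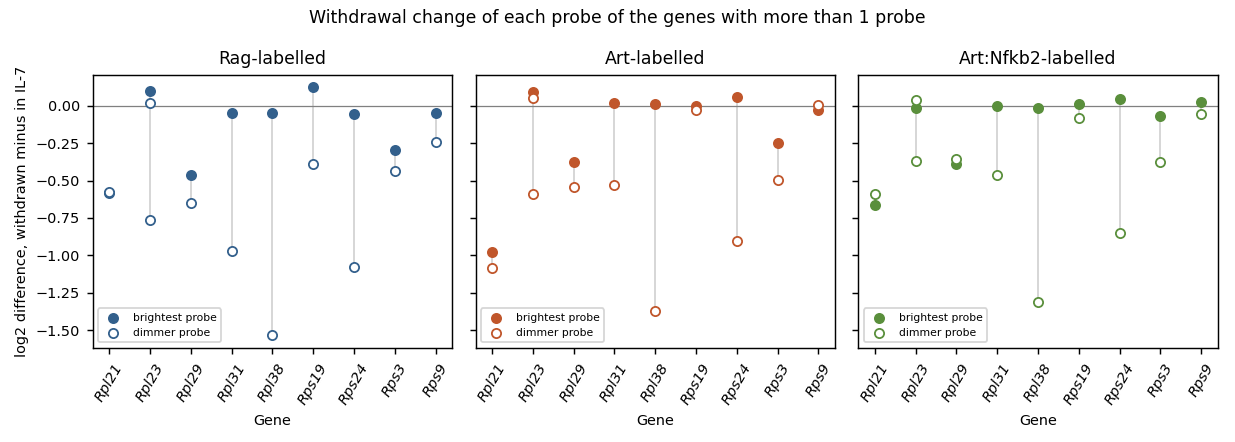
Log2 difference on withdrawal (vertical axis) of each detected probe of the 9 ribosomal protein genes with more than 1 (horizontal axis), per genotype; filled points are the brightest probe, open points the dimmer ones, joined by a line. The probes of Rpl38, Rps24, Rpl31 and Rpl23 lie apart in every genotype, those of Rpl21 close together.

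The same arrays were also read as pairs within cultures. Of the 54 members 36 to 45 were lower after withdrawal in each of the 9 cultures, with medians from -0.26 to -0.09, and 19 members were lower in all 9 cultures. These 19 were the set lower in all genotypes with Rpl10, Rpl19, Rpl23a, Rpl28, Rpl3, Rpl35, Rpl39, Rps10 and Rps6. No member was higher in all 9. Matching shares over all genes were not computed, so these counts are a description of the members. Changes of the 54 members correlated between genotypes at a Pearson r of 0.86 (Rag-labelled and Art-labelled), 0.89 (Rag-labelled and Art:Nfkb2-labelled) and 0.93 (Art- and Art:Nfkb2-labelled). This is a description over 54 genes measured with the same probes, and the 3 withdrawal comparisons share no array.

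**Figure D4:**
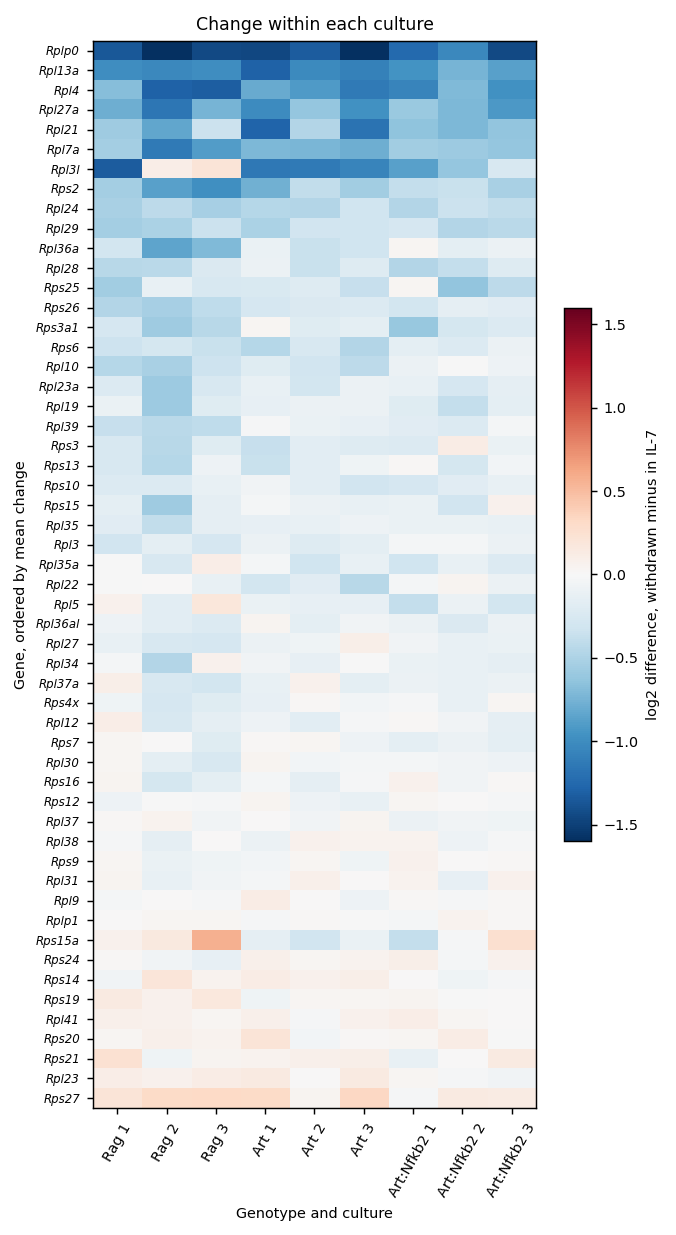
Change of each of 54 ribosomal protein genes (rows, ordered by mean change) within each of 9 cultures (columns), as the log2 difference of the withdrawn minus the IL-7 array, by colour. Rplp0, Rpl13a, Rpl4 and Rpl27a are blue (lower) in all cultures, and Rpl3l is lower in Rag-labelled culture 1 alone of that genotype.

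Differences of the withdrawal response between genotypes were not detected among the members, at a count that matches the background. No member was called for a difference of the withdrawal response between Art-labelled and Rag-labelled cells, where 1.27% of genes were called (0.781% higher and 0.485% lower), or between Art:Nfkb2-labelled and Art-labelled cells, where 0.213% were (0.107% each way). At an unadjusted limma p under 0.05 there were 3 and 2 members. Without Rag-labelled withdrawn array 1, 1 member was called in the former. The greatest differences were those of Rpl3l, at -0.77 (limma adjusted p = 0.392) and 0.53 (0.986), which did not pass. More members were called in Rag-labelled than in the other cells, and this does not show a difference of response.

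After withdrawal, 9 members were higher and none lower in Art-labelled than in Rag-labelled cells, where 10.1% of all genes were higher and 8.89% lower (19% either way). These were Rpl7a (log2 difference 0.39), Rpl24 and Rps15 (0.37 each), Rpl19 and Rpl39 (0.35 each), Rpl36a (0.33), Rpl29 (0.28), Rpl30 (0.26) and Rps9 (0.23). The members' median was 0.15, beside -0.01 over all genes. In this comparison genotype cannot be told apart from sex, as all Rag-labelled arrays carried Y-linked signal and all Art-labelled ones Xist. Rpl39, an exit tunnel protein, read 14.81, 14.71 and 14.80 on withdrawn Rag-labelled arrays and 15.19, 15.13 and 15.07 on Art-labelled ones, which did not overlap (0.35 ± 0.08 SE, limma adjusted p = 0.0034). Rpl39 and Rpl24 kept their calls on leaving out any single array, and the other 7 did not. The Rpl36a call was lost with the culture as a block (limma adjusted p = 0.0561). Leaving out 1 of 5 arrays (Rag-labelled withdrawn 2 or 3, Art-labelled withdrawn 1, 2 or 3) left 4, 5, 4, 3 and 5 members, and with scaling to the median of all probes 0 members were called.

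Comparing withdrawn Art:Nfkb2-labelled with Rag-labelled cells, 11 members were higher and 2 lower, where 12.6% of genes were higher and 13% lower (25.6% either way). The highest differences were those of Rpl36a (0.47), Rps2 and Rpl7a (0.43 each) and Rpl10 (0.39), and the call of Rps13 (0.27) was lost with the culture as a block (limma adjusted p = 0.0634). Leaving out Rag-labelled withdrawn array 3 or Art:Nfkb2-labelled withdrawn array 1, 2 or 3 left 6, 8, 7 and 6 members, scaling to the median of all probes left 2, both of them lower, and without the Y-positive culture 6 were called. Rpl10, Rpl36a, Rpl39 and Rps2 kept their calls on leaving out any single array. This comparison and the one before share the Rag-labelled arrays. X-linked members stood among the higher ones. Rpl36a read 13.67, 13.16 and 13.39 on withdrawn Rag-labelled arrays, 13.85, 13.67 and 13.69 on Art-labelled and 13.91, 13.81 and 13.91 on Art:Nfkb2-labelled ones, so that no Rag-labelled array lay above any other, and its highest array equalled the lowest Art-labelled one at this precision. In IL-7 its means were 14.02, 13.99 and 13.95. Art:Nfkb2-labelled culture 3 carries Y-linked signal as the Rag-labelled cultures do, and its withdrawn array read 13.91 for Rpl36a, 15.04 for Rpl39 and 15.15 for Rpl10. The highest withdrawn Rag-labelled arrays read 13.67, 14.81 and 14.92. This sets a single array beside those of another genotype, and the part of sex in these differences was not tested. The other X-linked member, Rps4x, has a mean raw signal of 60385, at the top of the scale, and was called in no comparison.

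Rps3a1, a small-subunit protein at the mRNA exit, was lower in Art:Nfkb2-labelled cells, but not in all of their cultures. On withdrawn arrays 1, 2 and 3 it read 10.02, 10.26 and 11.48 in Art:Nfkb2-labelled cells. It read 11.99, 11.71 and 11.90 in Art-labelled and 11.69, 11.34 and 11.75 in Rag-labelled cells. Culture 3, the Y-positive one, lay near the other genotypes, and cultures 1 and 2 lay far below. In IL-7 the same cultures gave 10.62, 10.54 and 11.69, against 11.90 to 12.19 on the other IL-7 arrays. The withdrawn difference from Art-labelled cells was -1.28 ± 0.32 (SE, limma adjusted p = 0.0323), the single member called there, where 3.99% of genes were called, 1.78% higher and 2.21% lower. The difference from Rag-labelled cells was -1.0 (adjusted p = 0.0301). Without culture 3 they were -1.73 and -1.45 (limma adjusted p = 9.35e-06 and 8.56e-06). That leaves out the culture near the other genotypes and keeps 2, so these p-values do not speak for the genotype. In IL-7 the difference from Art-labelled cells was -1.02 (0.0944), which passed with the culture as a block (0.0498). With that block the falls of Rps3a1 on withdrawal in Rag-labelled (-0.42, adjusted p = 0.00529) and Art:Nfkb2-labelled cells (-0.37, 0.0122) also passed, as did a fall of Rps25 in Art:Nfkb2-labelled cells (-0.34, 0.0467). The call of Rps3a1 against Art-labelled withdrawn cells was lost without any withdrawn Art-labelled array or without Art:Nfkb2-labelled withdrawn array 1 or 2 (up to 0.166), and with no filter on dim probes (0.0614). Against Rag-labelled cells it failed when leaving out Rag-labelled withdrawn array 1 or 3 or Art:Nfkb2-labelled withdrawn array 1 or 2 (up to 0.149). Whether the mRNA or the match of its probe differs between these mixed-background cultures was not tested.

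Rpl22, which lymphocyte precursors of mice need for their survival, stood out in IL-7. It read between 11.99 and 12.25 on the 3 Art-labelled arrays, 11.74, 11.59 and 11.61 on Rag-labelled and 11.66, 11.61 and 11.75 on Art:Nfkb2-labelled ones. Art-labelled arrays were the highest and overlapped neither. Between Art- and Rag-labelled cells in IL-7, genotype again cannot be told apart from sex. Against Rag-labelled cells the difference was 0.43 ± 0.09 (SE, limma adjusted p = 0.00794), and in the same comparison Rpl13a (0.32) and Rpl24 (0.29) were higher too, 3 members in all where 6.46% of genes were called, 3.63% higher and 2.83% lower. Of all calls there 56.2% were higher, and 45.2% with scaling to the median of all probes, where no member was called. Leaving out Rag-labelled IL-7 array 1 or 3, Art-labelled IL-7 array 1 or 3 or the Y-positive culture left 1 member. The Rpl24 call sat at the threshold (limma adjusted p = 0.0491). It was lost on leaving out any of 14 arrays (up to 0.194) and under 7 other settings, the series matrix among them. With the culture as a block Rps15a also passed (0.71, limma adjusted p = 0.0397 against 0.0501 without). In IL-7, 3 of 10 myeloid markers and Nkg7 (1.92), the tested T and NK marker, were called higher in Art:Nfkb2-labelled than in Art-labelled cells, and their part in the next result was not tested. Rpl22 was the single member called between Art:Nfkb2-labelled and Art-labelled IL-7 cells, at -0.40 (0.0158), where 4.39% of genes were called, 3.01% higher and 1.39% lower. That call was lost without Art-labelled IL-7 array 3 or Art:Nfkb2-labelled IL-7 array 1 or 2 (up to 0.0793). Leaving out Rag-labelled IL-7 array 2, Art-labelled IL-7 array 2, Art:Nfkb2-labelled IL-7 array 3, Rag-labelled withdrawn array 1 or Art:Nfkb2-labelled withdrawn array 3 gave 2 members. On withdrawal Rpl22 fell by 0.31 on the log2 scale in Art-labelled cells and differed by -0.04 and -0.03 in the others, and that call was lost without Art-labelled IL-7 array 3 (limma adjusted p = 0.0608).

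Rpl3l, the muscle counterpart of Rpl3 that the symbol rule admits, varied widely between arrays. On withdrawn Rag-labelled arrays it read 9.85, 11.17 and 11.10, so that 1 array lay far below the other 2. It fell by 1.11 on the log2 scale in Art-labelled cells (limma adjusted p = 0.00297), and was lower in Art:Nfkb2-labelled than in Rag-labelled withdrawn cells (-0.84, 0.0276), and this call did not survive leaving out Rag-labelled withdrawn array 2 or 3, any Art:Nfkb2-labelled withdrawn array (up to 0.123) or the Y-positive culture (0.0608).

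**Figure D5:**
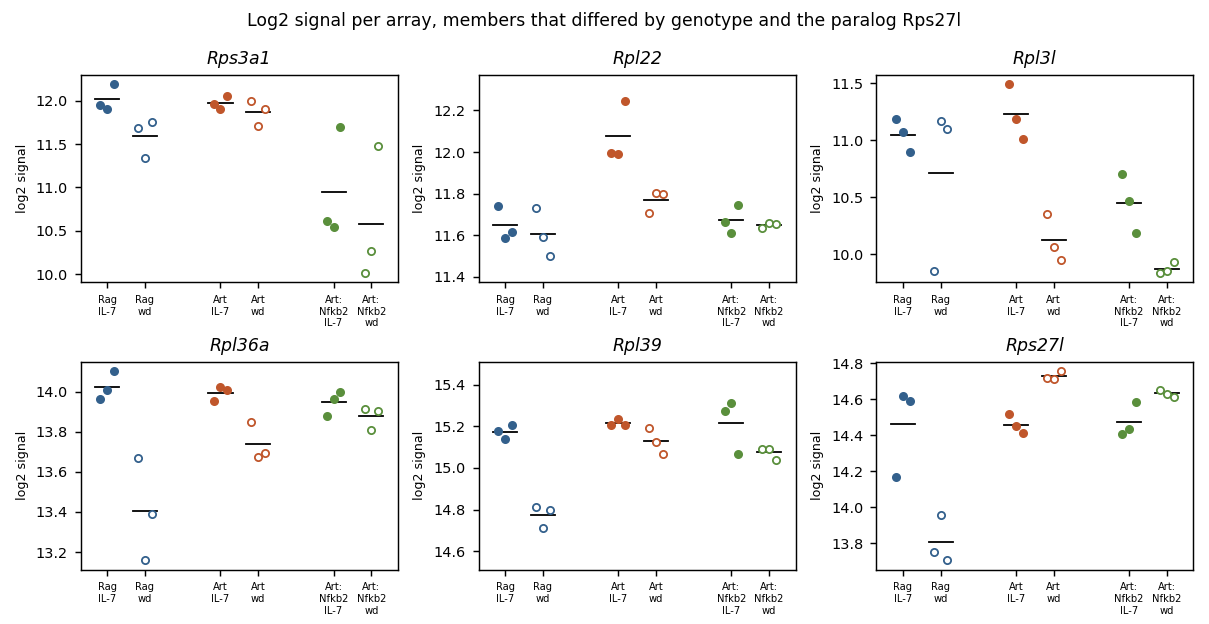
Normalized log2 signal (vertical axis) on each array for 5 ribosomal protein genes and the paralog Rps27l, by genotype and condition; filled points are IL-7 arrays, open points withdrawn (wd) arrays, and the line is the mean of 3. Rps3a1 is low in 2 of 3 Art:Nfkb2-labelled cultures, Rpl22 is highest in Art-labelled IL-7 arrays, and Rps27l is lowest on withdrawn Rag-labelled arrays.

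Lists of other genes of ribosome making and translation can be read against the 19.4%, 18.8% and 17.9% of all genes called lower. Of 20 tested genes of nucleolar ribosome biogenesis, 14, 12 and 14 fell in Rag-, Art- and Art:Nfkb2-labelled cells and 0, 1 and 1 rose, with medians of -0.50, -0.42 and -0.46. Ncl, the nucleolin gene, changed by -1.16, -0.93 and -0.87, Fbl, the methylase that modifies ribosomal RNA, by -0.90, -0.86 and -0.75, and Nhp2, a box H/ACA particle protein, by -1.16, -1.02 and -0.85. The exception was Pes1, which rose by 0.71 and 0.63 in the last 2 genotypes. Npm1 stands in this list and the next. Of 18 tested genes whose mRNAs also carry a TOP tract, 8, 9 and 7 fell and 1 rose, with medians of -0.32, -0.41 and -0.33. Of this list, Eef1a1 read 6.67 to 7.94 on array 3 of the 6 groups and 4.74 to 5.05 on arrays 1 and 2. Tpt1 read 7.88 to 8.55 and 5.07 to 6.59. With such a spread between arrays these 2 genes could show no modest change. Nap1l1, a histone chaperone, changed by -1.36, -1.23 and -0.85, Pabpc1, the poly(A)-binding protein, by -0.91, -0.63 and -0.67, and Npm1, the nucleophosmin gene, by -0.97, -0.68 and -0.64. Eif4a2, an initiation helicase, rose by 0.41, 0.57 and 0.48. Fau, which encodes a small-subunit protein fused to a ubiquitin-like one, differed by 0.02, 0.00 and -0.10, and none passed. Its signal of 15.22 to 15.69 lies near the top of the scale, so these differences do not show a steady level.

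Of 18 genes that couple nutrients and growth to the ribosome, 6, 7 and 6 rose and 1, 3 and 2 fell, where 25%, 26.2% and 22.7% of all genes rose, so the count is only slightly above the background. Sesn1, a sestrin that restrains mTOR, rose by 0.59, 0.72 and 0.70, and Rictor, of the second mTOR complex, by 0.43, 0.66 and 0.41. Mdm2, the ligase of p53 that free ribosomal proteins bind, rose by 0.57, 0.83 and 0.72. Myc was detected on 2, 3 and 2 of 3 IL-7 arrays and on no withdrawn array, and is among the genes called lower in each genotype. The lists, like the members, were chosen with earlier results of these data known.

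Among the paralogs, Rps27l, a p53 target closely related to Rps27, ran apart from the members. It read 14.17, 14.62 and 14.59 in IL-7 and 13.75, 13.96 and 13.70 after withdrawal in Rag-labelled cells, a difference of -0.66 (limma adjusted p = 0.00022). Art-labelled cells gave 14.52, 14.45 and 14.41 in IL-7 and 14.72, 14.71 and 14.75 after it, where the difference of 0.27 did not pass (0.0561). Withdrawn Art-labelled arrays were thus 0.92 higher than Rag-labelled ones (2.00e-05) and Art:Nfkb2-labelled ones 0.83 higher (3.65e-05), without overlap. Rpl7l1 fell by 0.32 in Art-labelled cells.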

How the data were processed

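RNA of 18 arrays was labelled with biotin, per the labels' protocols. Per the file headers, the deposited table gives for each array the probes' intensity before normalization with a detection p-value. Another deposited intensity, in the series matrix, is linear and background-subtracted by its values (29.5% to 29.7% of values below 0), and was used as an alternative. Partek and GenomeStudio are named in the submitters' processing notes, without version or role. Columns of per-sample values not used: 0.

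Signals of 25697 probes went through neqc (limma 3.58.1, R 4.3.3), that is normexp background correction guided by the detection p-values, an offset of 16, quantile normalization and log2, so differences of dim genes are understated. Of 11356 probes kept, the brightest per gene left 8446 genes, 673 of them named by probe ID; 1719 probes had no symbol. A linear model over the 6 groups (12 residual degrees of freedom) was fitted with lmFit and eBayes for 10 comparisons, and p-values were adjusted by Benjamini-Hochberg over all genes per comparison at 0.05, two-sided. On simulated data of 8446 genes for withdrawal in Rag-labelled cells, 40% of changes of 0.5 and 86% of changes of 1 on the log2 scale were recovered, and 4.55% of calls were false. Only 100 genes were changed by each amount there, whereas 44.4% of genes were called in the data. The adjustment is less strict with so many changes, so these shares do not carry over to the data.

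The members and lists were chosen with earlier results of these data known. The plan was to name, per comparison, the 5 highest and 5 lowest members, and the members of the role lists. It also held those of highest and lowest signal, those whose probes disagree, and called examples of other lists. Not all of these are named above, and further members were named after their values were seen. Replicates were taken as separate cultures, as the design text says. Same-numbered arrays of a genotype deviated together (r 0.37 to 0.59, each highest with its own number). The design text has the cultures themselves withdrawn, so culture was taken to pair them. Some signals also went with the array number across genotypes: Eef1a1 and Tpt1 read higher on array 3 than on arrays 1 and 2 in all 6 groups. The labels name no batch, and the part of array number in these correlations was not tested. The model has no block, and the blocked value stands beside results it changed. Alternatives were 2 other scalings, no background correction, the series matrix, no filter, the mean or the dimmest probe per gene, the culture block, leaving out the Y-positive culture and leaving out each array. Promoters came from RefSeq (GRCm38.p6). Ribosomal protein genes without a probe of that symbol were not analysed here.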

Additional observations from a re-analysis of the deposited data

Results flagged for a closer look

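No member of the ribosomal protein genes stood out by a tested difference of its withdrawal response between genotypes, but 2 genes of the other lists did. Rps27l changed by -0.66 on withdrawal in Rag-labelled cells and by 0.27, which did not pass, in Art-labelled cells, a difference of response of 0.924 on the log2 scale (SE 0.154, limma adjusted p = 0.00788). Eef2k, the kinase that halts elongation factor 2, differed by -0.961 (SE 0.169, limma adjusted p = 0.0103), with a change of 0.08 in the former genotype and -0.88 in the latter. Groups of 3 arrays are too small for a check of single outlying samples.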

How the results depend on the processing

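The members' counts, medians and single-gene values were recomputed under 27 alternatives, 9 of them other settings and 18 each leaving out 1 array, and 2 (scaling to the median of detected probes, and the dimmest probe) were chosen after seeing the data. With scaling to the median of all probes, 12 members were called on withdrawal in Rag-labelled cells, 0 in Art-labelled against Rag-labelled cells withdrawn and 0 in IL-7, and 2 for withdrawn Art:Nfkb2-labelled against Rag-labelled cells. The members' medians were then -0.24 and -0.16 on withdrawal in Art- and Art:Nfkb2-labelled cells, -0.12 and -0.012 for Art:Nfkb2-labelled against Art-labelled and Rag-labelled withdrawn cells, 0.21 and -0.17 for the 2 IL-7 comparisons, and -0.096 and 0.043 for the 2 response differences. With scaling to the median of detected probes, 25, 21 and 7 members were called on withdrawal in Art- and Art:Nfkb2-labelled cells and for withdrawn Art:Nfkb2-labelled against Rag-labelled cells. The medians were -0.27, -0.26 and -0.25 on withdrawal, 0.21 and -0.11 for Art-labelled against Rag-labelled and Art:Nfkb2-labelled against Art-labelled withdrawn cells, and 0.21 and -0.079 in IL-7. The dimmest probe gave withdrawal medians of -0.28, -0.16 and -0.14, and the mean of probes -0.15 in Art-labelled cells. Between Art:Nfkb2-labelled and Art-labelled IL-7 cells, 2 members were called without background correction, 2 with the culture as replicate block and 2 without the Y-positive culture. No filter left 0 between these genotypes withdrawn. Without the Y-positive culture there were 1 for Art-labelled against Rag-labelled in IL-7 and 6 for Art:Nfkb2-labelled against Rag-labelled withdrawn.

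Leaving out 1 array gave 16 to 25, 13 to 15 and 9 to 14 members on withdrawal, 3 to 11, 0 to 1 and 6 to 14 between withdrawn genotypes (Art-labelled against Rag-labelled, Art:Nfkb2-labelled against Art-labelled and against Rag-labelled), 1 to 4 and 0 to 2 in IL-7, and 0 to 1 and 0 to 0 for the responses. The medians ran from -0.21 to -0.15, -0.12 to -0.11, -0.12 to -0.087, 0.11 to 0.16, -0.036 to -0.027, 0.058 to 0.13, 0.035 to 0.063, -0.038 to -0.024, 0.027 to 0.082 and -0.0050 to 0.012 in the same order.

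Signs turned with the probe. With the mean of probes, withdrawal gave -0.22 for Rpl23 in Rag-labelled cells, -0.25, -0.68 and -0.42 for Rpl31, Rpl38 and Rps24 in Art-labelled cells and -0.40 for Rps24 in Art:Nfkb2-labelled cells, and Rps19 was 0.30 and 0.26 higher in Art- and Art:Nfkb2-labelled than in Rag-labelled withdrawn cells. With the dimmest probe these were -0.76 for Rpl23 and -0.39 for Rps19 in Rag-labelled cells, -0.59, -0.53, -1.38 and -0.90 for Rpl23, Rpl31, Rpl38 and Rps24 in Art-labelled cells and -0.85 for Rps24 in Art:Nfkb2-labelled cells; against Rag-labelled withdrawn cells, Rpl23 gave 0.40 and 0.33 and Rps19 0.66 and 0.55. Scaling to detected probes turned Rpl31 to -0.26 in Art-labelled cells. The cause was not tested. Counts of the other gene lists, Rps27l, Eef2k, Myc and the promoter counts were not recomputed. The culture block changed 9 member calls, all given above, and no other. The planned block by slide was not run, as no slide is named in the sources used here. Arrays at the top of the scale limit what the brightest members can show.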
